A study of Homo sapiens with 2 samples.

Results

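The ZBTB family of transcription factors was described here across a genome-scale CRISPR/Cas9 knockout screen in Ewing sarcoma cells. Its members were the genes whose symbol is ZBTB followed by a number, together with BCL6, BCL6B, PATZ1, HIC1 and HIC2, which belong to the same family under other names. This gave 46 of the 19112 genes and 182 of the 74336 distinct single guide RNAs (sgRNAs) in the table of all sgRNAs. Of the members, 44 had 4 sgRNAs and the other two, ZBTB17 and ZBTB32, had 3. The symbol rule also took in ZBTB8OS, which is not a zinc finger protein: its product is a cofactor of the tRNA ligase complex and it carries the name of a neighbouring gene. The proteins of the family pair an amino-terminal BTB (or POZ) domain, through which they dimerise and recruit corepressors, with carboxy-terminal C2H2 zinc fingers that read specific DNA sequences. Many are known as transcriptional repressors, among them members that set the fate of blood and immune cells, read methylated DNA or act in growth control.

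The cells were A673, an established human Ewing sarcoma line, engineered so that the endogenous EWSR1::FLI1 fusion gene, the oncogene of this tumor, carried the red reporter tdTomato. They also stably expressed Cas9 and EGFP, the green control for general loss of protein, and both libraries shared all of these modifications and the same transduction with the Brunello knockout library at a multiplicity of infection of 0.3. Puromycin at 2 µg/ml was applied for 12 days and withdrawn for 3. A gate on low tdTomato and high EGFP then took about 7% of cells, and sgRNAs were sequenced from their progeny, the sorted library, and from ungated cells, the unsorted library. The reporter line was 1 knock-in clone, and A673 cells survive in culture without the fusion protein. The comparison asked which knockouts lower the EWSR1::FLI1 reporter more than EGFP, so that their sgRNAs take a larger share of the sorted library.

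There was 1 library in each group, with 10483144 reads unsorted and 1455322 reads sorted, a depth ratio of 7.20. A test on their reads compares 2 libraries rather than 2 conditions, and no value here has a replicate check. For each sgRNA the odds ratio is its reads against all other reads in the sorted library, divided by the same quantity in the unsorted library, so equal shares give 1. Calls rested on a 2-sided Fisher's exact test with the Benjamini-Hochberg adjustment over all 74336 sgRNAs. Below an adjusted p of 0.05, an sgRNA counted as enriched from an odds ratio of 2 upward and as depleted from 0.5 downward. Intervals are 95% exact (Clopper-Pearson) intervals, and they cover counting error only, because PCR reads without molecular identifiers are not independent molecules.

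The sgRNAs of ZBTB21, the only member with at least 3 enriched sgRNAs, and those with the largest odds ratios among members with at least 30 unsorted reads are shown first. Sequences are as listed in the table, 5′ to 3′, with the 10 bases next to the PAM, the seed on which Cas9 target recognition depends most, in capitals. Letters A to D order the sgRNAs of a gene from the highest to the lowest odds ratio, and those of equal odds ratio from the most to the fewest unsorted reads.
ZBTB21 sgRNA A: cggtgtccagTGATGCACCA
ZBTB21 sgRNA B: caaagtagaaACGAAGCGCA
ZBTB21 sgRNA C: ctgatcattaAGTTAAGGCG
ZBTB21 sgRNA D: gtgacgcggaTGATGTCCGA
ZBTB5 sgRNA A: gcactgttatCAGACTGGCT
HIC2 sgRNA A: cggctcgcttGAGTTTGCGG
ZBTB41 sgRNA B: tcatgaggggTTAACTCCAG
ZBTB3 sgRNA A: tcgtcaaggtGTGTAAGCGG
ZBTB37 sgRNA A: catgtgatccCGGAAATAGG
ZBTB45 sgRNA A: cagctgtcgcACTGTCTGCG
BCL6B sgRNA A: ccgttcagagGGTGATCCAG
ZBTB47 sgRNA A: cacgcaccgaGTAAGGGTCA
The genomic sites of the sgRNAs were not located here. No sgRNAs of 1 member gene overlapped by 8 or more bases.

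As a group, the family split in the way the whole library did. Of its 182 sgRNAs, 40 (22.0%) were enriched, against 20.8% of all sgRNAs, and 89 (48.9%) were depleted, against 51.7% of all. No read at all was seen in the sorted library for 106 (58.2%), against 57.6% of all sgRNAs. The 46 genes held 0.239% of unsorted reads (25005) and 0.266% of sorted reads (3872), and the median log2 ratio of their sgRNAs was -2.58 against -2.82 over all. Without ZBTB21, which the study picked from these libraries, 37 of 178 sgRNAs (20.8%) were enriched. Without ZBTB8OS the count was 40 of 178 (22.5%). A negative binomial test that took its spread from olfactory receptor sgRNAs left 11 of the 182 (6.04%) enriched, where it left 3.72% of all sgRNAs. These 11 had at most 79 unsorted reads, where the family median was 106.

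**Figure D1:**
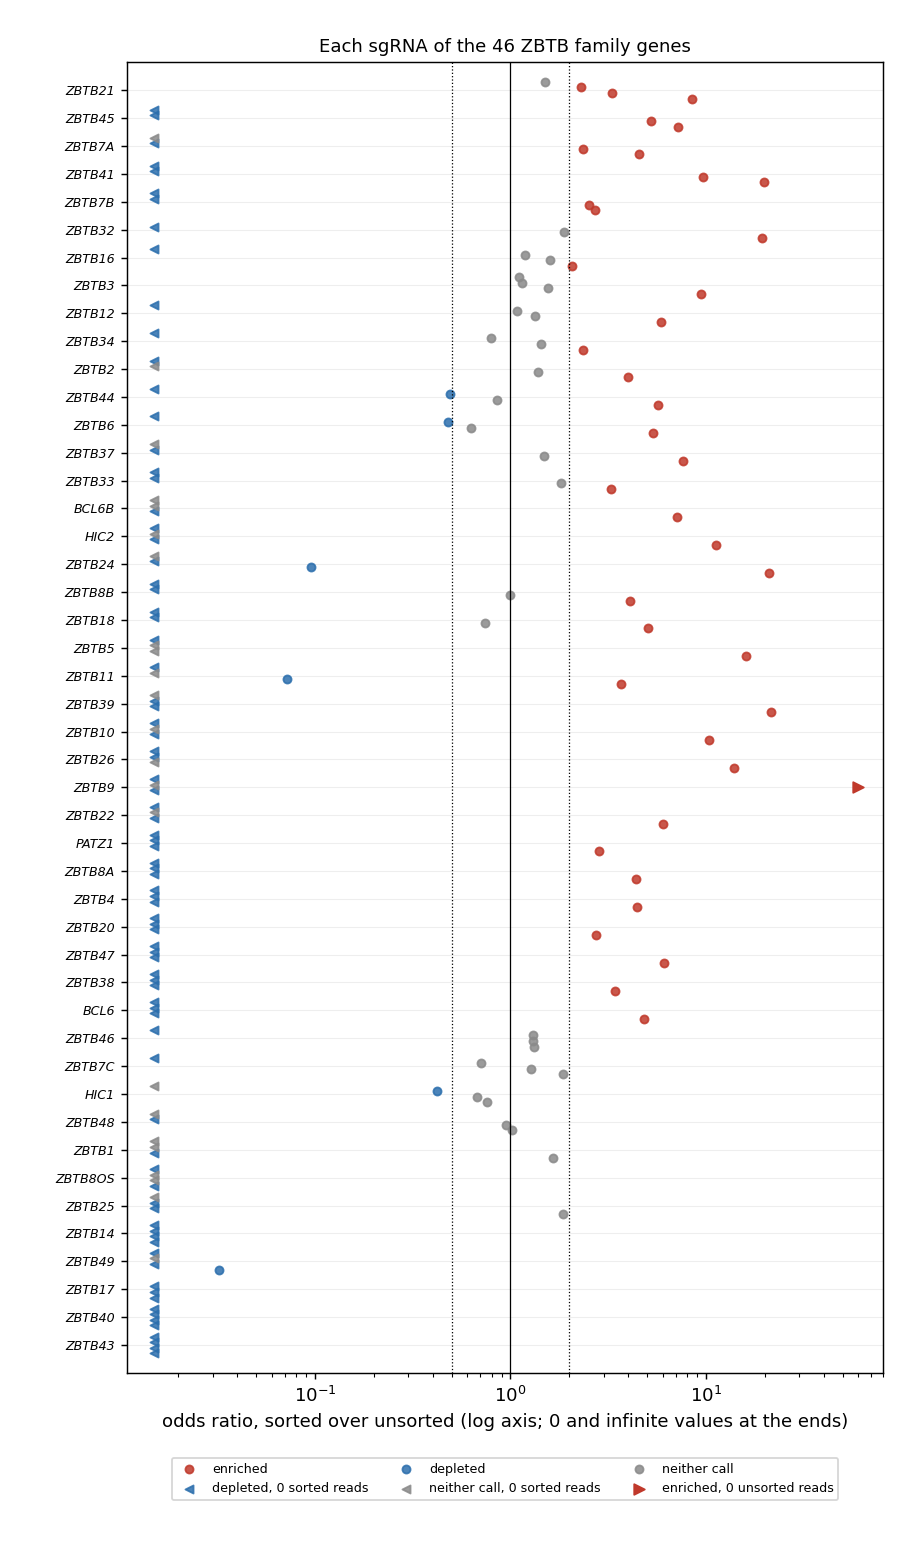
Odds ratio (sorted over unsorted, log axis) of each sgRNA, 1 row for each of the 46 genes, ordered by number of enriched sgRNAs and then by median log2 ratio. Red marks enriched, blue depleted and grey neither, dotted lines stand at 0.5 and 2, left-pointing triangles are sgRNAs with 0 sorted reads and the right-pointing triangle is the ZBTB9 sgRNA with 0 unsorted reads. ZBTB21 and ZBTB3 have no triangle at the left, and 5 genes at the bottom part of the plot have triangles alone.

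Few members had more than 1 enriched sgRNA. At least 2 sgRNAs were enriched for 5 genes (10.9%; 18.8% of all genes), and at least 3 for ZBTB21 alone (2.17%; 2.84% of all genes). Exactly 1 sgRNA was enriched for 29 genes (63.0%), against 40.5% of all genes, and none for 12 (26.1%), against 40.7%. In 15 of the 29 genes every other sgRNA had 0 sorted reads. This was not counted over all genes, so it cannot be called unusual. The 57.6% of all sgRNAs with 0 sorted reads has enriched sgRNAs in its base, so the share among sgRNAs not enriched is higher. An enriched and a depleted sgRNA of the same gene occurred together in 32 members (69.6%; 53.8% of all genes). Of the 270 pairs of sgRNAs that share a member gene, 135 (50.0%) differed from each other by Fisher's exact test adjusted over all pairs in the table, against 50.7% of pairs in all genes. These shares describe the family beside the library and were not tested against it.

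**Figure D2:**
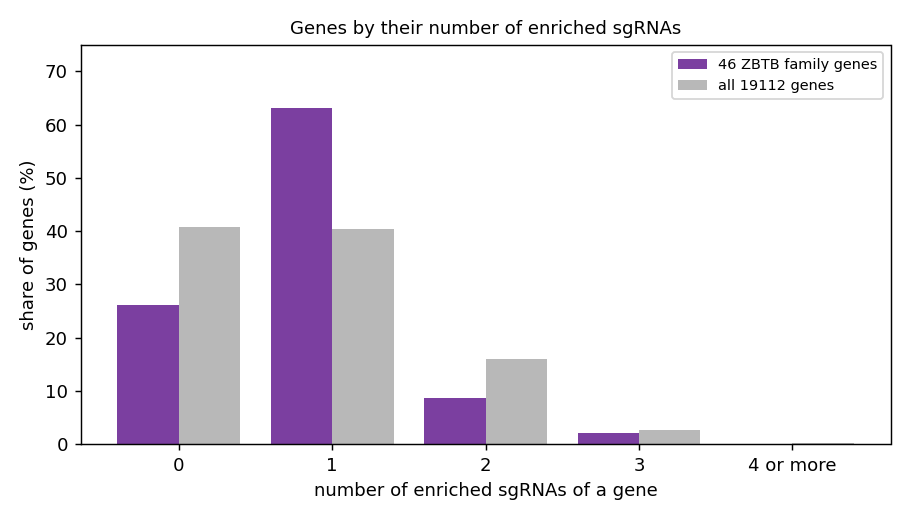
Share of genes (%, linear axis from 0) by their number of enriched sgRNAs, for the 46 family genes (purple) and all 19112 genes (grey). The family has 63.0% of its genes at 1 enriched sgRNA, where the library has 40.5%, and 10.9% at 2 or more, where the library has 18.8%.

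ZBTB21, also known as ZNF295, is a repressor that binds its relative ZBTB14. Its sgRNA A went from 131 reads before the sort to 155 after it, which is an odds ratio of 8.52 (6.71 to 10.8, adjusted p = 3.96e-63, Fisher's exact test). Its sgRNA B had 81 and 37 reads (odds ratio 3.29, 2.17 to 4.91), and its sgRNA C 195 and 62 (2.29, 1.69 to 3.06). The last one had 260 and 54 reads, and its odds ratio of 1.5 (1.09 to 2.01, adjusted p = 0.0130, Fisher's exact test) passed the p threshold but not the fold threshold. All 4 sgRNAs were therefore higher in the sorted library, and sgRNA A stood above the other three in each pairwise test. With its sgRNAs summed, ZBTB21 had 3.33 times (2.9 to 3.81) its unsorted share. The median log2 ratio of 1.47 placed it 1st among the 46 members and at rank 670 of all 19112 genes. Because the study had chosen ZBTB21 on these libraries, its count is a description and not independent evidence. The study listed 4 sgRNAs for ZBTB21, where 3 passed both thresholds here. Separately from these libraries, it reported that shRNAs against ZBTB21 lowered EWSR1::FLI1 protein and mRNA in A673 cells. The negative binomial test called none of the 4, with an adjusted p of 0.0517 for sgRNA A and 0.510 to 0.630 for the rest.

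**Figure D3:**
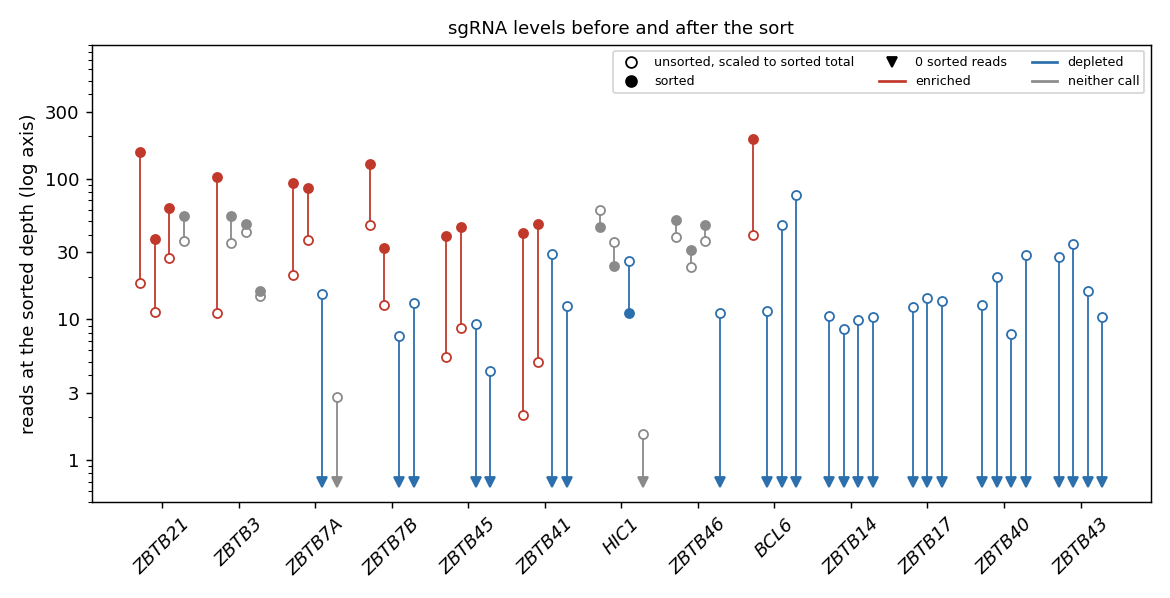
Reads of each sgRNA at the depth of the sorted library (log axis) for 13 members, with the unsorted reads scaled down to the sorted total (open circles) joined to the sorted reads (filled circles, or a triangle for 0 reads). All 4 lines of ZBTB21 point up, as do those of ZBTB3, and those of HIC1 all point down. Those of ZBTB14, ZBTB17, ZBTB40 and ZBTB43 all end at 0, and the other genes hold lines of both kinds.

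ZBTB3 was the only other member with sorted reads for each of its sgRNAs. Such genes made up 4.35% of members and 4.68% of all genes. Its sgRNA A rose from 79 to 103 reads across the sort, with an odds ratio of 9.39 (6.94 to 12.8, adjusted p = 1.41e-44, Fisher's exact test). The others had 250 and 54, 302 and 48, and 105 and 16 reads, with odds ratios of 1.56 (1.14 to 2.10), 1.14 (0.826 to 1.56) and 1.10 (0.605 to 1.87). Summed, ZBTB3 had 2.16 times (1.85 to 2.52) its unsorted share, and in the pairwise test sgRNA A differed from each of the rest, where no pair passed the threshold.

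Among the 11 members that regulate blood and immune cells, 9 of 42 sgRNAs (21.4%, against 20.8% of all) were enriched and 25 (59.5%, against 57.6%) had 0 sorted reads, both near the shares of the library. ZBTB7A, or LRF, is a repressor of fetal globin genes, and ZBTB7B, or ThPOK, directs T cells to the CD4 lineage. ZBTB7A had 2 enriched sgRNAs, with 148 unsorted and 93 sorted reads (odds ratio 4.53, 3.45 to 5.91) and 265 and 86 reads (2.34, 1.81 to 2.99). The other two of ZBTB7A had 109 and 20 unsorted reads and none sorted. ZBTB7B had 2 enriched sgRNAs as well, with 338 and 127 reads (2.71, 2.19 to 3.33) and 91 and 32 reads (2.53, 1.64 to 3.83), while the remaining pair had 55 and 94 unsorted reads and none sorted. Both genes thus held enriched and depleted sgRNAs together, and their summed shares were 2.38 times (2.00 to 2.82) and 1.98 times (1.65 to 2.37) the unsorted ones.

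BCL6, the repressor that maintains germinal center B cells, showed a wide split among its sgRNAs. Its sgRNA A had 287 unsorted and 192 sorted reads, more sorted reads than any other sgRNA of the family, with an odds ratio of 4.82 (3.99 to 5.81, adjusted p = 1.15e-51, Fisher's exact test). The other three had 553, 336 and 83 unsorted reads and 0 sorted reads. This is 25.6-, 15.5- and 3.84-fold lower than their unsorted share when a count of 0 is set to a floor of 3 reads for each sgRNA. The upper limits of their intervals were 0.0482, 0.0795 and 0.327. Summed over its 4 sgRNAs, BCL6 had 1.10 times (0.939 to 1.28) its unsorted share, and by the median log2 ratio (-5.54) it ranked last of the 46 members. That median falls among its sgRNAs with 0 sorted reads, so their unsorted counts and the pseudocount set it. The rank does not make BCL6 the most reduced member: ZBTB43, with no sorted read at all, ranked 45.

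The paralog BCL6B also had 1 enriched sgRNA, with 86 unsorted and 85 sorted reads (7.12, 5.21 to 9.72), beside 329, 17 and 9 unsorted reads with none sorted. ZBTB32, which limits immune effector responses, had 1 of 3 enriched from 22 unsorted and 59 sorted reads (19.3) and 1 just under the threshold (112 and 29 reads, 1.87). ZBTB16, or PLZF, the factor of innate-like T cells, had odds ratios of 2.06, 1.59 and 1.18 and 1 sgRNA at 0, so that only the first was enriched. ZBTB20, a regulator of plasma cells and liver genes, had 1 enriched sgRNA (108 and 41 reads, 2.73) and 3 at 0 sorted reads.

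No sgRNA was enriched for the remaining 4 genes of this set. ZBTB46, a marker of classical dendritic cells, had 3 sgRNAs of nearly equal odds ratio, 1.32, 1.31 and 1.30 from 279 and 51, 171 and 31, and 261 and 47 reads, and 1 with 79 unsorted reads and none sorted. The highest odds ratio was 1.64 for ZBTB1 and 1.86 for ZBTB25. ZBTB17, or MIZ-1, the partner through which MYC represses genes, had no sorted read and is described with the other such members.

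Each of ZBTB33 (Kaiso), ZBTB4 and ZBTB38, which bind methylated CpG, and ZBTB24, which is mutated in an immunodeficiency with centromere instability, had exactly 1 enriched sgRNA, the commonest count in the family (63.0% of members, 40.5% of all genes). Kaiso had 216 unsorted and 98 sorted reads (odds ratio 3.27) and a second sgRNA at 1.81 with 295 and 74 reads. ZBTB4 had 123 and 76 reads (4.45) and ZBTB38 84 and 40 (3.43). The ZBTB24 sgRNA had the larger odds ratio of 21.0, but from only 12 unsorted reads against 35 sorted. Of the 16 sgRNAs of these genes, 10 (62.5%, against 57.6% of all) had 0 sorted reads.

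Of the 6 members tied to growth control, 4 had 1 enriched sgRNA each, so that 4 of their 24 sgRNAs (16.7%, against 20.8% of all) were enriched. ZBTB5, a repressor of the cell cycle inhibitor gene CDKN1A, had the largest odds ratio of all family sgRNAs with at least 30 unsorted reads, 16.0 (11 to 23.5, adjusted p = 7.29e-51, Fisher's exact test) from 42 and 93 reads. HIC2 followed with 11.2 (7.38 to 17.1) from 40 and 62 reads. ZBTB2, a repressor in the p53 pathway, had 4.01 from 160 and 89 reads. PATZ1, itself a fusion partner of EWSR1 in some tumors, had 2.85 from 177 and 70 reads, with its other three sgRNAs at 41, 73 and 277 unsorted reads and 0 sorted.

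The tumor suppressor HIC1 had no enriched sgRNA. It had 429 and 45, 255 and 24, and 188 and 11 reads, with odds ratios of 0.756 (0.543 to 1.03), 0.678 (0.426 to 1.03) and 0.421 (0.207 to 0.772), the last of them depleted, and 1 sgRNA with 11 unsorted reads and none sorted. No pair of its sgRNAs differed, and its summed share was 0.653 times (0.512 to 0.821) the unsorted one. ZBTB7C had odds ratios of 1.86, 1.28 and 0.708 and 1 sgRNA at 0.

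The telomere repeat binding proteins ZBTB48 (TZAP) and ZBTB10 had 1 enriched sgRNA of 8 (12.5%, against 20.8% of all). It belonged to ZBTB10, with 32 and 46 reads and an odds ratio of 10.4 (6.45 to 16.8). ZBTB48 had 2 sgRNAs with odds ratios of 1.02 and 0.944, and the other two at 0 sorted reads. The members known from brain and muscle development had 3 enriched sgRNAs of 12 (25.0%, against 20.8% of all). ZBTB45 had 2 enriched sgRNAs, with 39 and 39 reads (7.20, 4.50 to 11.5) and 62 and 45 reads (5.23, 3.48 to 7.80), and 2 depleted ones, with 67 and 31 unsorted reads and none sorted. ZBTB18, a repressor needed in the developing cortex, had 1 enriched sgRNA (53 and 37 reads, 5.03), 1 at 0.745 and 2 at 0.

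The largest group, 20 less studied genes, had 19 of 80 sgRNAs enriched (23.8%, against 20.8% of all). ZBTB21 and ZBTB41 had 3 and 2 of them. ZBTB41 rose from 15 to 41 reads (19.7, 10.7 to 38.3) and from 36 to 48 reads (9.60, 6.11 to 15.2). Its sgRNAs with 210 and 90 unsorted reads had no sorted read. They were 9.72- and 4.16-fold lower at the floor of 3 reads, with upper interval limits of 0.128 and 0.301. A single sgRNA was enriched for ZBTB3, ZBTB6, ZBTB8A, ZBTB8B, ZBTB9, ZBTB11, ZBTB12, ZBTB22, ZBTB26, ZBTB34, ZBTB37, ZBTB39, ZBTB44 and ZBTB47. The odds ratios of these sgRNAs ran from 2.36 (ZBTB34, 119 and 39 reads) to 21.6 (ZBTB39, 23 and 69 reads), apart from the ZBTB9 sgRNA.

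The enriched ZBTB37 sgRNA had 57 and 60 reads (7.58, 5.19 to 11.1), and that of ZBTB47 120 and 101 (6.06, 4.61 to 7.97). The ZBTB9 sgRNA had 46 sorted reads and none unsorted. It was 110-fold higher when the unsorted count is set to the floor of 3 reads, with a lower interval limit of 86.3. ZBTB12 was closest to ZBTB3 in pattern, with 5.85 followed by 1.34 and 1.08, but its sgRNA D had 139 unsorted reads and none sorted.

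The members with no sorted read for any sgRNA were ZBTB14, ZBTB17, ZBTB40, ZBTB43 and ZBTB8OS (10.9%; 14.6% of all genes). Their sgRNAs are shown because together they carry the opposite pattern to ZBTB21, with the same use of capitals. All have an odds ratio of 0, so the letters follow falling unsorted reads. ZBTB14, or ZF5, is the family member that ZBTB21 binds, ZBTB40 and ZBTB43 are less studied, and ZBTB17 is MIZ-1.
ZBTB14 sgRNA A: ctaaatgaacAACGCCTGGA
ZBTB14 sgRNA B: ttcctgaaccCTGAGCGTTG
ZBTB14 sgRNA C: tgatgatgtaGAGGAAATCG
ZBTB14 sgRNA D: gtgaaagatgAACAGACACC
ZBTB17 sgRNA A: gcaccttcggATCCACAGCG
ZBTB17 sgRNA B: ggaaggagttCACGCACACG
ZBTB17 sgRNA C: ctccgagctcTCGGACAAAG
ZBTB40 sgRNA A: tgtagtaggaGTCTCCGCTG
ZBTB40 sgRNA B: atattggtacAGCCTCAACA
ZBTB40 sgRNA C: aaacgtgactCTGGTTCAGG
ZBTB40 sgRNA D: ggtgattctgAATTGCTGTG
ZBTB43 sgRNA A: cttcctccagATGTGGCATG
ZBTB43 sgRNA B: agtacctggtCACAAAAGTA
ZBTB43 sgRNA C: gcgccgagttCCACTACACC
ZBTB43 sgRNA D: gctgggcaggTATTCGTGCT
ZBTB8OS sgRNA A: agtgtctaatCCTGCAGTCA
ZBTB8OS sgRNA B: ttctttaggtTACACGCATG
ZBTB8OS sgRNA C: tctacttctaCTGTTTGGAG
ZBTB8OS sgRNA D: tgaagaacagAAGGCGATCA
The 4 sgRNAs of ZBTB14 had 76, 74, 71 and 61 unsorted reads, and those of ZBTB17 had 102, 97 and 88. ZBTB40 had 205, 143, 91 and 57, and ZBTB43 had 247, 201, 115 and 75. Each of these 15 sgRNAs was depleted by Fisher's exact test. By the negative binomial test their adjusted p-values ran from 0.510 to 0.542, so that test called none of them. ZBTB8OS had 225 and 144 unsorted reads for its depleted sgRNAs, and 14 and 4 for the other pair, too few for 0 sorted reads to be told from an equal share.

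Summed over sgRNAs, ZBTB43 would have had 88.6 sorted reads at its unsorted share and ZBTB40 68.9. With the floor of 3 reads now set for the gene's sum, they were 29.5- and 23.0-fold lower. The upper limits of their intervals were 0.0418 and 0.0538. ZBTB17 and ZBTB14 were 13.3- and 13.0-fold lower (upper limits 0.0932 and 0.0948) and ZBTB8OS 17.9-fold (0.0690). ZBTB49 came next, with 446 unsorted and 2 sorted reads for its highest sgRNA (0.0323, 0.0039 to 0.117) and 240, 69 and 4 unsorted reads with none sorted for the others. With ZBTB49, these were the members in which no sgRNA reached 3 sorted reads.

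**Figure D4:**
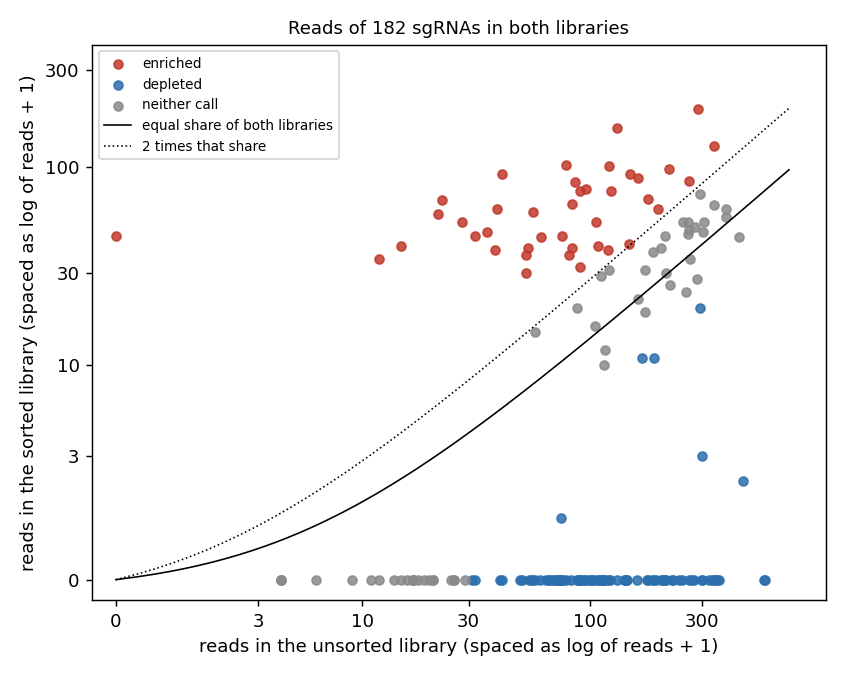
Sorted against unsorted reads of the 182 sgRNAs (both axes spaced as the log of reads + 1), with the line of equal shares (solid) and of 2 times that share (dotted). The 76 sgRNAs with sorted reads lie between 1 and 192 reads at all unsorted levels, and those with 0 sorted reads line the bottom edge from 4 to 553 unsorted reads.

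The size of an odds ratio moved with the unsorted count. Among the 76 family sgRNAs with any sorted read, sorted and unsorted reads had a Spearman correlation of 0.02, which is given as a description over sgRNAs that share the same 2 libraries, and over all sgRNAs with sorted reads it was 0.17. The median of sorted reads in these family sgRNAs was 50.0 where there were fewer than 30 unsorted reads, 40.0 from 60 to 119 and 51.0 from 240 upward, so the median odds ratio went from 20.3 to 3.29 to 1.28. The 9 family sgRNAs with an odds ratio over 10 had at most 42 unsorted reads. From 240 unsorted reads upward 3 of 36 were enriched (8.33%, against 9.02% of all such sgRNAs), namely those of BCL6, ZBTB7A and ZBTB7B. The part that low starting counts play in the large odds ratios was not tested.

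Coverage also limits the calls of absence. Of the 106 sgRNAs with 0 sorted reads, 83 were depleted, and the 23 that were not had at most 29 unsorted reads. In the deposited mapping a read was kept only with a single match within 3 mismatches, and 3 family sgRNAs, of BCL6B, HIC2 and ZBTB49, had another library sgRNA within that distance. They had 9, 4 and 4 unsorted reads. Across the library the 2270 sgRNAs with such a neighbor had 6 unsorted reads in the median, and the other sgRNAs had 107.

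The partners through which BTB domains act were read from a list of 15 genes, all of them corepressor genes except CUL3. Of their 57 sgRNAs 9 were enriched (15.8%, against 20.8% of all), 29 were depleted (50.9%, against 51.7%) and 31 had 0 sorted reads (54.4%, against 57.6%). The median log2 ratio was -1.66 against -2.82 over all sgRNAs, but with most sgRNAs at 0 these medians do not measure enrichment. Among sgRNAs with sorted reads the order was the reverse, 0.40 against 1.01. TBL1XR1, a subunit of the NCOR1 corepressor complex, had 2 of 3 enriched (12 and 29 reads, 17.4; 84 and 44 reads, 3.77). The Sin3 scaffold SIN3B also had 2 (169 and 112 reads, 4.77, and 72 and 43 reads, 4.30) and no sgRNA at 0. CTBP2, a corepressor bound by HIC1, had 2 as well (106 and 91 reads, 6.18, and 55 and 41 reads, 5.37). TBL1X, BCOR, which binds the BCL6 BTB domain, and HDAC1 had 1 each, and NCOR1, GPS2, BCORL1, SIN3A, HDAC2, CTBP1 and CUL3 had none. The deacetylase HDAC3 had no sorted read for any sgRNA, from 7 to 70 unsorted reads.

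The BTB zinc finger genes ZNF131, GZF1 and MYNN lie outside the symbol rule. ZNF131 had 2 enriched sgRNAs, with 8 and 42 reads (37.8, 17.5 to 93.3) and 113 and 60 reads (3.82, 2.75 to 5.28), and 2 at 0 sorted reads. All 4 sgRNAs of GZF1 had 0 sorted reads from 48 to 395 unsorted reads and were depleted. MYNN had none enriched, 2 at 0, and a highest odds ratio of 1.05.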

How the data were processed

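sgRNA reads were available for 1 unsorted and 1 sorted A673 library. Per the methods, the authors mapped reads with Bowtie 1.2.2 to the library, keeping a single match within 3 mismatches, and deposited raw counts per sgRNA, 10483144 and 1455322 in all. The authors also deposited an odds ratio and p-value per sgRNA, from their own Fisher's test, which were not used. The accession of 45 of 46 members was found in RefSeq, and the genome build was not given in the sources used here. After removal of 3 repeated entries, each sgRNA was tested with a 2-sided Fisher's exact test (scipy 1.17.1, Python 3.11.15) against the other reads, with Benjamini-Hochberg adjustment over 74336 sgRNAs. Log2 ratios used a pseudocount of 0.5. Pairs of sgRNAs of 1 gene were tested likewise over 108590 pairs. The code was checked on simulated Poisson counts, which lack the spread of these libraries. That check gives no error rate for the calls made here. Every member is named, with those holding at least 2 enriched sgRNAs, no sorted read or the 10 largest odds ratios from at least 30 unsorted reads in more detail. The sequence of 1 of those, of ZBTB10, and the values of 1 corepressor gene are not reported here. Members and lists were chosen with earlier results of these data known. The closing section gives the alternatives tried.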

Additional observations from a re-analysis of the deposited data

How the results depend on the processing

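Of the processing choices, the test for enrichment mattered most. A negative binomial test whose dispersion (1.34) was taken from 1211 olfactory receptor sgRNAs with at least 30 unsorted reads left 11 of the 40 enriched sgRNAs (6.04% of the family's, against 3.72% of all sgRNAs) and 1 gene, ZBTB41, with at least 2. With the dispersion averaged over those olfactory receptor sgRNAs (4.70), chosen after seeing the data, 1 sgRNA, of ZBTB9, and 0 genes were left. The test took each unsorted count as exact, so passing it does not mark the better covered sgRNAs. The 11 had at most 79 unsorted reads (ZBTB3), and the ZBTB9 sgRNA had 0. Any odds ratio above 1 gave 48 enriched sgRNAs and 11 genes with at least 2, where 26.0% of all genes had as many. Bonferroni adjustment left 40 depleted sgRNAs in place of 89. In the negative binomial test with dispersion 1.34, the depleted sgRNAs all had adjusted p-values of 0.510 or more, so none was called. At that dispersion even 0 sorted reads from 553 unsorted ones, the most in the family, could not pass. The test therefore cannot decide on depletion here. The median log2 ratio was -0.10 with a pseudocount of 5 (all sgRNAs -0.32) and -3.97 among sgRNAs with at least 30 unsorted reads (all -3.56). The other alternatives stayed within 1.5 times the reported count: olfactory receptor reads as totals (a shift of 0.05 in log2), the minimum of 30 unsorted reads, Bonferroni adjustment of enriched sgRNAs and pairs, and leaving out ZBTB8OS or ZBTB21 (the last pair of choices made after seeing the data). ZBTB41 dropped below 2 enriched sgRNAs with the minimum of 30 reads, and ZBTB7B under Bonferroni adjustment. No paired analysis was possible because each group holds 1 library, and none could be left out. Depth limits the calls below 30 unsorted reads, where no sgRNA of the family was depleted.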

Other observations

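The family's sorted reads came from 76 of its 182 sgRNAs. The 10 sgRNAs with the most sorted reads held 29.4% of the family's sorted reads and the top 20 held 48.0%, shares that were not set against the library. The median GC content was 55.0% in the 40 enriched sgRNAs and 50.0% in the 106 with no sorted read. Over the whole library both medians were 50.0%. GC content and unsorted reads had a Spearman correlation of 0.02 over the 182 family sgRNAs, given as a description. Some members are neighbors in the RefSeq gene order, among them ZBTB34 and ZBTB43, of which ZBTB34 had sorted reads for 3 of 4 sgRNAs (2.36, 1.43 and 0.796) and ZBTB43 for none. ZBTB26 and ZBTB6, another such pair, had 1 enriched sgRNA each, with 28 and 54 reads (13.9) and 54 and 40 reads (5.34).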
